A study of Mus musculus with 4 samples.

Results

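The AP-1 and ATF family factors described here were 8 genes chosen by symbol: the Fos family members Fos, Fosb and Fosl2, the Jun family members Jun, Junb and Jund, and the related factors Atf3 and Batf. Each had exactly 1 array row that named it alone. In all, 19752 genes had such a row. RNA came from splenic CD4+ T cells of male C57BL/6 mice aged 6 weeks, with unwanted cells removed by negative selection. All cells had first been stimulated through CD3 and CD28 with beads for 48 h. One array held cells kept with interferon alpha (IFNa, 100 U/ml) for 2 h, 1 array held cells kept with it for 8 h, and 2 baseline arrays held cells with no IFNa. Whether the 2 baseline samples stem from different animals or cultures, and whether animals were pooled, is not given in the labels, so the spread between them may be technical. Untreated cells matched for time were not analysed here, and the effect of IFNa cannot be told apart from that of time in culture. The preparation note of both IFNa samples also mentions JAK inhibitors as present or absent, and the other labels of those samples name the cytokine alone.

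AP-1 is a dimer of basic leucine zipper proteins. Fos proteins bind DNA in a dimer with a partner such as a Jun protein, whereas Jun proteins can also pair with each other. Atf3 and Batf share the zipper: Atf3 is a stress-induced factor that often represses its targets, and Batf pairs with Jun proteins and binds composite sites with Irf4 or Irf8 in lymphocytes. In T cells AP-1 is known for acting with NFAT at cytokine genes after stimulation through the T cell receptor and CD28. Fos, Fosb, Jun and Atf3 are known as immediate early genes, whose transcripts appear and decay quickly.

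All 6 measured CD4 T cell markers, Cd4 and Cd3e among them, lay above the median of all rows on every array. All 5 measured B cell markers did so too, with summed intensities of 2294 at 2 h and 3033 at 8 h, against 2456 and 2445 at baseline, while 0 of 4 NK cell markers and 2 of 7 myeloid markers (Lyz2 and Cd68) did. Of the CD8 T cell markers Cd8b1 did on all 4 arrays and Cd8a on 2. The part of RNA from these other cells in the results was not tested. Over the 10699 genes tested, baseline replicate 2 lay above baseline replicate 1 for 67.5%, with a median log2 difference of 0.10. Over the 8 factors it lay above for 7, with a median of 0.41. Over all tested genes the 2 h array correlated more closely with replicate 2 (Pearson r 0.973) than with replicate 1 (0.952). The 8 h array was closer to replicate 1 (0.952) than to replicate 2 (0.939). The baseline arrays thus differ along the direction in which the IFNa arrays differ, and the cause was not tested. Values are therefore given for each baseline array in turn, replicate 1 before replicate 2.

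Promoter sequences are shown for the 4 factors that passed a test in at least 1 comparison (Fosl2, Fosb, Jun and Atf3), since they are the stretches next to the start of the genes whose transcripts moved. They are RefSeq windows of 300 bases on build GRCm38.p6, from 250 bases before the annotated start to 50 after it, written 5′ to 3′ on the gene's strand. Fosl2 lies on the plus strand at chr5:32136222-32136521, Fosb on the minus strand at chr7:19309996-19310295, Jun on the minus strand at chr4:95052173-95052472 and Atf3 on the minus strand at chr1:191183284-191183583. Capitals mark matches to any of the motifs named below.
Fosl2: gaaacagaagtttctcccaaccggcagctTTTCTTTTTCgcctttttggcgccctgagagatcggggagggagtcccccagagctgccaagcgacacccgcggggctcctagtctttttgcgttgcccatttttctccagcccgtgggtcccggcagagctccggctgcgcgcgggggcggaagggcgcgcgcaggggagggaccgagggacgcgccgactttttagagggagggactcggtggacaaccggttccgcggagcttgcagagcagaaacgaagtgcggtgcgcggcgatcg
Fosb: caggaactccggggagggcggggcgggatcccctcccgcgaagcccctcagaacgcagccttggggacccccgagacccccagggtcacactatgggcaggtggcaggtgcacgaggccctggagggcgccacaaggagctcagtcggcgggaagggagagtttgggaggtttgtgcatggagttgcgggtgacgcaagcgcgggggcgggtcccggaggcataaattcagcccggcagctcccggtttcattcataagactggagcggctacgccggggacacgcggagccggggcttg
Jun: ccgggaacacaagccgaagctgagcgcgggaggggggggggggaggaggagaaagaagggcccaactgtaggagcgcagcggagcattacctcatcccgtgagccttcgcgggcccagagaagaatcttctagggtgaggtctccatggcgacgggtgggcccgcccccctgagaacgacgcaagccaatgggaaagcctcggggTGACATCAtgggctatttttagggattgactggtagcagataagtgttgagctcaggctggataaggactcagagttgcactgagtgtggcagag
Atf3: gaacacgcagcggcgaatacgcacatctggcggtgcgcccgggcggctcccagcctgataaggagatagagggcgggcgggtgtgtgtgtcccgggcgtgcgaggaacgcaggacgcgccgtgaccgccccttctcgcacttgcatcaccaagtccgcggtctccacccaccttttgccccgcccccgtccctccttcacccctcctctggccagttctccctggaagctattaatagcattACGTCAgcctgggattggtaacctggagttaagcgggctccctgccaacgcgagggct

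Motifs were searched on both strands in the windows of all 8 factors and in all 32851 RefSeq windows of that length. The variant cyclic AMP response element TGACNTCA matched in 1 of the 8, that of Jun, as TGACATCA beginning 45 bases before the start, and in 8.83% of all windows. The shorter form TGACGT, which the longer motif contains when its N is G, matched in 3 of the 8 and in 7.51% of all windows. These were Fos and Batf, 66 and 98 bases before the start, and Atf3 on the opposite strand, 8 bases before it. The core of the interferon-stimulated response element, GAAA repeated after 2 free bases, matched in 1 of the 8, that of Fosl2, on the opposite strand, and in 3.44% of all windows. The TPA response element TGANTCA, to which AP-1 itself binds, and the gamma-activated site TTCNNNGAA, to which STAT dimers bind, matched in 0 of the 8, against 7.81% and 8.30% of all windows. A missing match says only that these letters were not in these 300 bases.

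The transcripts of the 8 factors were compared between arrays as log2 intensity, with a call at an adjusted p under 0.05 over all 10699 genes in limma. At 2 h, 1 of the 8 was called higher, Fosl2, against 1.09% of all tested genes. At 8 h, 2 of the 8 were called lower than baseline, Jun and Atf3, against 3.35% of all tested genes. At 8 h against 2 h, 4 of the 8 were called lower, Fosb, Fosl2, Jun and Atf3, against 10.8% of all tested genes. No factor was called in the opposite direction, and Fos, Junb, Jund and Batf were not called in any comparison. The directions of calls over all genes depended on the scaling: they were 117 higher and 1 lower at 2 h as deposited, 332 and 109 after quantile normalization. At 8 h they were 70 higher and 358 lower as deposited, 663 and 900 after quantile normalization. For 8 h against 2 h the calls were 156 higher and 1155 lower as deposited, 990 higher and 1316 lower after quantile normalization, and 72 higher and 2315 lower once arrays were centred on their medians.

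In the Fos family, which supplies the partner that Jun proteins need for the Fos-Jun form of AP-1, intensities peaked on the 2 h array. Fosl2, which encodes the Fos-related antigen Fra-2, had an intensity of 672 at 2 h and 244 at 8 h, against 288 and 306 at baseline. The 2 h array lay above both baseline arrays and the 8 h array below both. Fosl2 rose 2.26-fold at 2 h (log2 difference 1.18, SE 0.20, adjusted p = 0.0346, limma, 1 array against 2). That adjusted p was 0.0505 under a stricter filter on dim rows (60th percentile) and 0.0769 without a filter. At 8 h its log2 difference from baseline was −0.29 (SE 0.20, adjusted p = 0.403). In these bulk samples, more cells with a transcript and more transcript per cell cannot be told apart.

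Fosb, whose product is an immediate early partner of Jun proteins, had an intensity of 367 at 2 h and 204 at 8 h, against 187 and 184 at baseline. Both IFNa arrays lay above both baseline arrays, the 8 h array only slightly. The 2 h value was 1.97-fold that of baseline (log2 difference 0.98, SE 0.20, adjusted p = 0.0712), which did not pass. After quantile normalization the same difference was 0.89 with an adjusted p of 0.00567, and with centred arrays 1.08 with an adjusted p of 0.0110. It did not pass with a stricter filter, no filter, other priors, a gene's rows averaged or every row tested.

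Fos, the founding member of the family, had an intensity of 192 at 2 h and 121 at 8 h, against 110 and 130 at baseline. Only the 2 h value exceeded the median of all rows on its array, so Fos entered the test through that array alone. The 2 h value lay above both baseline arrays and the 8 h value between them. The log2 difference was 0.69 at 2 h (SE 0.21, adjusted p = 0.259) and 0.02 at 8 h (SE 0.21, adjusted p = 0.964).

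In the Jun family, whose proteins can pair with Fos proteins or with each other, Jun alone was called. Differences between the members of the family were not tested. Jun, the founding member and itself an immediate early gene, had an intensity of 442 at 2 h and 137 at 8 h, against 312 and 409 at baseline. The 8 h array stood far below the other 3. Jun fell at 8 h, with a level 2.60-fold below baseline (log2 difference −1.38, SE 0.23, adjusted p = 0.0220). At 2 h its difference was 0.31 (SE 0.23, adjusted p = 0.615), above both baseline arrays but only by a factor of 1.08 over baseline replicate 2. Its 8 h intensity was also below the median of all rows on that array, so the size of the fall rests on a dim value.

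Junb, a Jun protein that is known to restrain Jun in some settings and to work with Batf in helper T cells, had an intensity of 846 at 2 h and 540 at 8 h, against 522 and 778 at baseline. Jund, which is broadly expressed in resting cells as well, had 1710 at 2 h and 1144 at 8 h, against 1078 and 1859 at baseline. For Jund both IFNa arrays lay between the baseline arrays, and for Junb the 8 h array did. The baseline arrays themselves were 0.58 apart for Junb and 0.79 apart for Jund on the log2 scale, the widest gaps among the 8 factors. The log2 differences at 2 h were 0.41 for Junb (SE 0.26, 95% interval −0.19 to 1.01) and 0.27 for Jund (SE 0.31, 95% interval −0.43 to 0.98). At 8 h they were −0.24 for Junb (95% interval −0.84 to 0.36) and −0.31 for Jund (95% interval −1.01 to 0.40). Intervals this wide do not show that either gene was unchanged.

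Atf3 had the widest swing of the 8. The 2 h array gave an intensity of 1083 and the 8 h array 186, against 389 and 522 at baseline. The 2 h array stood above both baseline arrays and the 8 h array below both, where it was also under the median of all rows. Atf3 fell at 8 h to a level 2.43-fold below baseline (log2 difference −1.28, SE 0.24, adjusted p = 0.0288). That adjusted p was 0.0626 with no filter on dim rows. At 2 h Atf3 had the largest difference among the 8, 2.40-fold (log2 difference 1.26, SE 0.24), with an adjusted p of 0.0517 that just missed the threshold. It passed after quantile normalization (1.14, adjusted p = 0.000413), with centred arrays (1.36, adjusted p = 0.000305) and with a gene's rows averaged (adjusted p = 0.0497). The same difference did not pass with the 60th percentile filter, with no filter, with an intensity trend or robust prior, or when every row was tested.

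Batf, the partner of Jun proteins at sites shared with Irf4 and Irf8, had an intensity of 634 at 2 h and 458 at 8 h, against 472 and 663 at baseline. The 2 h array lay between the baseline arrays and the 8 h array just below the lower one. The log2 difference was 0.18 at 2 h (SE 0.25, 95% interval −0.39 to 0.75) and −0.29 at 8 h (SE 0.25, 95% interval −0.86 to 0.28), neither called.

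**Figure D1:**
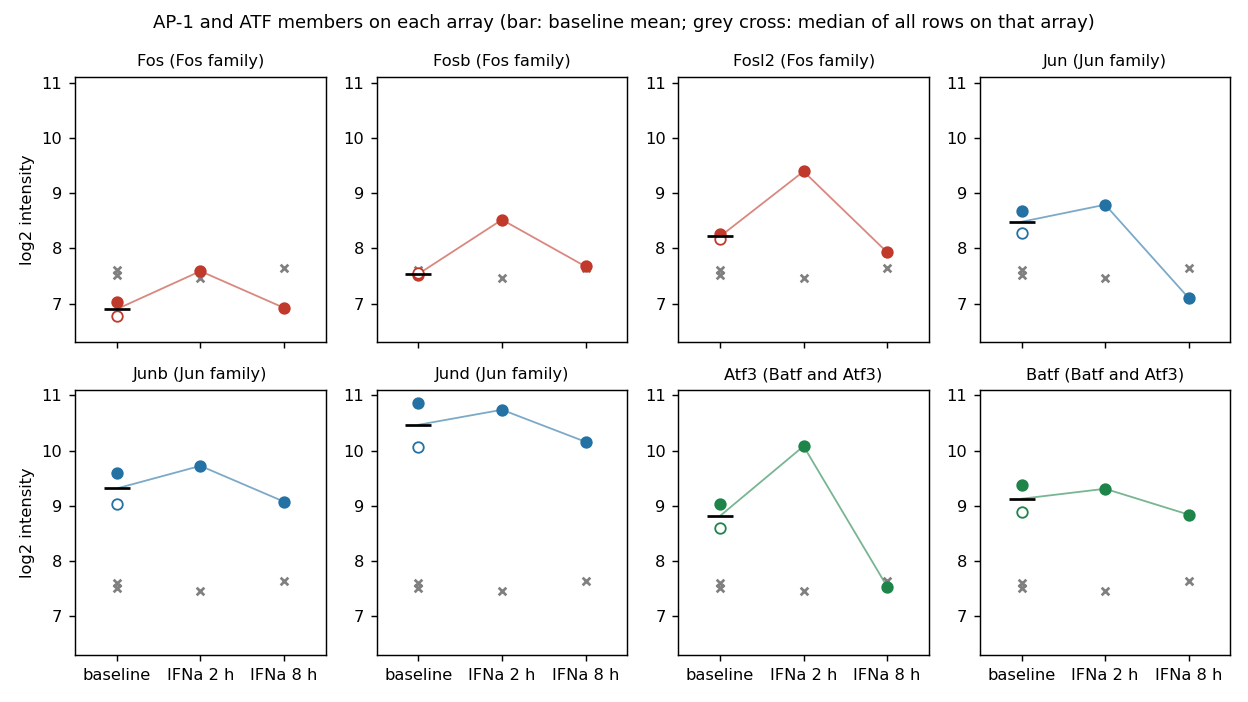
Log2 intensity (y axis) of each of the 8 factors at baseline, at 2 h and at 8 h of IFNa (x axis), 1 panel per gene; at baseline the open point is replicate 1, the filled point replicate 2 and the black bar their mean, and grey crosses give the median of all rows on each array. Atf3, Fosl2 and Jun stand above both baseline points at 2 h and below both at 8 h. Jun, Atf3 and Fos lie below the grey cross at 8 h, Fos as at baseline. The points of Jund and Batf stay near the spread of their baseline arrays.

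By family, the median log2 difference at 2 h was 0.98 over the 3 Fos genes (range 0.69 to 1.18), 0.31 over the 3 Jun genes (0.27 to 0.41) and 0.72 over Atf3 and Batf (1.26 and 0.18), against 0.06 over all tested genes. The 2 h array lay above both baseline arrays for 6 of the 8, against 44.5% of all tested genes, and the 8 h array below both for 4, against 55.9%. Both held for 3 factors, Fosl2, Jun and Atf3, and for 28.6% of all tested genes. Past a 2-fold difference lay 2 factors at 2 h (Fosl2 and Atf3 higher, against 1.77% of genes) and 2 at 8 h (Jun and Atf3 lower, against 2.60%). Over all genes the number past 2-fold in either direction was 196 at 2 h, or 366 without baseline replicate 2, and 339 at 8 h, or 528 without baseline replicate 1. All 8 differences at 2 h were above 0, as were 57.0% of those of all tested genes. The 2 h median of the Fos genes and these 2 h counts include Fos. It entered the test only through the 2 h array, where it is high. At 8 h the medians were 0.02 over the Fos genes (−0.29 to 0.13), −0.31 over the Jun genes (−1.38 to −0.24) and −0.78 over Atf3 and Batf (−1.28 and −0.29), against −0.16 over all tested genes. With quantile normalization the medians over all genes were −0.01 at 2 h and −0.002 at 8 h, and with centred arrays 0.15 and −0.24, so differences are read relative to them. Both comparisons use the same baseline arrays. The difference between families was not tested.

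The comparison of 8 h with 2 h, 1 array against 1 with the spread taken from the baseline pair, was below 0 for all 8 factors, as it was for 67.9% of all tested genes. Atf3 fell most, to 5.83-fold below its 2 h level (log2 difference −2.54, SE 0.27, adjusted p = 0.00790), and only 0.0748% of tested genes had a more negative difference. Jun followed (−1.69, SE 0.27, adjusted p = 0.0136), then Fosl2 (−1.46, SE 0.23, adjusted p = 0.0137). Fosb was lower by a smaller amount (−0.85, SE 0.23) with an adjusted p of 0.0493, which became 0.0573 with the 60th percentile filter and 0.0946 with no filter. Fos stood at −0.66 (adjusted p = 0.0956), Junb at −0.65 (adjusted p = 0.160), Jund at −0.58 (adjusted p = 0.268) and Batf at −0.47 (adjusted p = 0.266). The median over the 8 was −0.76, against −0.25 over all tested genes. It includes Fos, which entered the test only through the 2 h array.

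**Figure D2:**
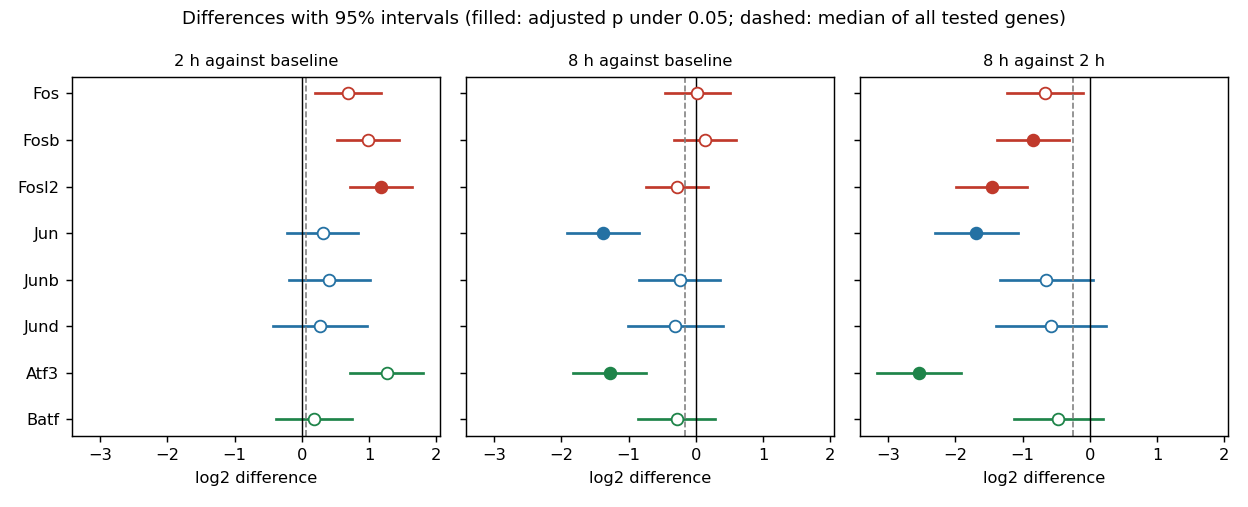
Log2 difference (x axis) of each factor (y axis) for 2 h against baseline, 8 h against baseline and 8 h against 2 h, with 95% intervals from limma; filled points passed an adjusted p under 0.05, and the dashed line is the median of all tested genes. All 8 points lie right of 0 at 2 h with Fosl2 the filled one, Jun and Atf3 are the filled points at 8 h, and all 8 points lie left of 0 for 8 h against 2 h.

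Set against each baseline array alone, which allows no test, Fosl2 at 2 h stood at 1.22 over replicate 1 and 1.13 over replicate 2 on the log2 scale. Fosb stood at 0.97 and 0.99, and Atf3 at 1.47 and 1.05. Jun at 8 h stood at −1.18 from replicate 1 and −1.58 from replicate 2, and Atf3 at −1.07 and −1.49. These 5 differences thus kept their direction and a size near or above 2-fold against either array. Junb, by contrast, stood at 0.70 and 0.12 at 2 h, Jund at 0.67 and −0.12, and Batf at 0.43 and −0.06, so that the sign for Jund and Batf turned with the baseline array used. At 8 h Junb stood at 0.05 and −0.53, Jund at 0.09 and −0.70, and Batf at −0.04 and −0.53.

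The 4-array profiles, centred on the baseline mean, were compared by Euclidean distance on the log2 scale. Junb and Jund were the most alike of the 8 (distance 0.21), followed by Jund with Batf (0.23) and Junb with Batf (0.24), and Fos with Fosb (0.37). Among all other tested genes the nearest to Fosl2 were N4bp1 (0.08) and Bcor (0.08), and those nearest to Fosb were Elk3 (0.10) and Rgs16 (0.10). Nearest to Atf3 were Tsr1 (0.15) and Rcl1 (0.19). They were farther than the nearest genes of the other factors, but closer than any of the 8 factors were to one another. Kpna4 (0.05) and Fancc (0.06) were nearest to Fos, and Fam185a (0.06) and Tgm2 (0.09) to Jun. Usp5 and Ccs (0.03 each) were nearest to Junb, Rab27a (0.04) and Pigs (0.05) to Jund, and Ube3b and Lamtor2 (0.04 each) to Batf. The distances rest on 4 arrays.

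Related genes were taken from lists, starting with the other factors of the same family. Of 12 further AP-1 and ATF factors (Fosl1, Batf2, Batf3, Jdp2, Atf1, Atf2, Atf4, Atf5, Atf6, Atf6b, Atf7 and Ddit3), all 12 were tested. None was called at 2 h or at 8 h against baseline. Of all tested genes 1.09% were called higher at 2 h and 3.35% lower at 8 h, so 0 calls among 12 genes do not set them apart. Their medians were 0.08 at 2 h and −0.14 at 8 h, beside 0.06 and −0.16 over all genes. Atf4, a factor of the amino acid and stress response, had an intensity of 677 at 2 h and 342 at 8 h, against 588 and 617 at baseline, and was the only one of the 12 lower at 8 h against 2 h (−0.99, SE 0.23, adjusted p = 0.0349), where 10.8% of all tested genes were called lower. Batf3, the close relative of Batf, stood at −0.50 at 8 h (SE 0.20, adjusted p = 0.179). Ddit3 went the other way: it had the largest 2 h difference of the 12 in size, −0.50, and stood at 0.13 at 8 h. Neither difference of Ddit3 was called.

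Of 21 listed Maf, CREB and other basic leucine zipper factors 18 were tested. Of these, 0 were called at 2 h, where 1.09% of all tested genes were called higher. At 8 h 3 fell, beside 3.35% of all tested genes called lower. At 8 h against 2 h 4 were lower, beside 10.8% of all tested genes. Crem, a cyclic AMP responsive factor, had the profile of a peak: 710 at 2 h and 171 at 8 h, against 355 and 329 at baseline. The 8 h value lay below the median of all rows on that array, so the size of each fall of Crem rests on a dim value. Its 2 h difference was 1.05 (SE 0.20, adjusted p = 0.0578), its 8 h difference −1.0 (SE 0.20, adjusted p = 0.0383) and its difference at 8 h from 2 h −2.05 (SE 0.23, adjusted p = 0.00790). Nfil3 (−1.46, SE 0.20, adjusted p = 0.0102) and Xbp1, a factor of the unfolded protein response (−1.12, SE 0.21, adjusted p = 0.0308), were the others that fell at 8 h. Both were also lower than at 2 h, as was the small Maf protein gene Mafk (−1.15, SE 0.30, adjusted p = 0.0431).

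Upstream of AP-1 stand the MAP kinases, which phosphorylate Jun and Fos and act on their transcription. Of the listed kinases of this chain 21 were tested. None was called at 2 h or at 8 h against baseline, where 1.09% of all tested genes were called higher and 3.35% lower, respectively. At 8 h against 2 h 3 were lower, where 10.8% of all tested genes were. These were Map2k3, which activates p38 (−1.72, SE 0.29, adjusted p = 0.0151), Map3k8, which feeds the ERK pathway (−1.24, SE 0.23, adjusted p = 0.0202), and Map2k4, which activates JNK and p38 (−0.89, SE 0.23, adjusted p = 0.0446). Map2k3 had an intensity of 1568 at 2 h and 475 at 8 h, against 714 and 1005 at baseline. Of 9 listed factors that act on the Fos promoter 6 were tested. Elk3, a partner of Srf, had 1568 at 2 h and 851 at 8 h, against 764 and 823 at baseline. It was the only call of that list, at 8 h against 2 h, where 10.8% of all tested genes were called lower (−0.88, SE 0.23, adjusted p = 0.0463), with 0.98 at 2 h (SE 0.20, adjusted p = 0.0734). Srf itself stood at 0.11 at 2 h and −0.30 at 8 h, neither called. Stat3 stood at 0.29 at 2 h and −0.33 at 8 h, also uncalled.

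Among 6 DNA-binding partners of AP-1, both interferon regulatory factors that bind with Batf fell at 8 h, where 3.35% of all tested genes were called lower, and the 4 NFAT genes held no call. Irf4 had an intensity of 2191 at 2 h and 682 at 8 h, against 1657 and 2276 at baseline, and fell by 1.51 on the log2 scale at 8 h (SE 0.24, adjusted p = 0.0187). Irf8 had 2707 at 2 h and 986 at 8 h, against 3427 and 2950 at baseline, and fell by 1.69 (SE 0.21, adjusted p = 0.00661). Batf was not called at 8 h, with the interval given above. Nfatc1, Nfatc2, Nfatc3 and Nfat5 had differences between −0.27 and 0.24 at both times.

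Of 14 genes known to carry AP-1 or combined AP-1 and NFAT sites in T cells, 8 were tested and 6 were dim. Fasl, a death ligand, had an intensity of 297 at 2 h and 110 at 8 h, against 107 and 110 at baseline. It was the only one called higher at 2 h (1.45, SE 0.20, adjusted p = 0.0131), but only its 2 h value exceeded the array median, so it entered the test through the array where it is high and its calls are given as a description. At 8 h, 4 fell, beside 3.35% of all tested genes, with adjusted p from 0.00508 to 0.0423 in limma. They were the cytokines Il2 (−2.23, SE 0.27), Il4 (−1.37, SE 0.20) and Tnf (−1.30, SE 0.23) and the activation marker Cd69 (−0.95, SE 0.20). Il2 had an intensity of 156 at 8 h, below the median of all rows on that array, against 898 and 600 at baseline. The size of its fall thus rests on a dim value. Il2, Il4, Tnf and Cd69 were also called lower at 8 h against 2 h, where 10.8% of all tested genes were. Fasl was lower there too, with the same limit as at 2 h. The median over the 8 tested genes, Fasl included, was 0.43 for 2 h and −0.73 for 8 h, each relative to baseline. Between the 2 IFNa arrays it was −1.43. The matching medians over all tested genes were 0.06, −0.16 and −0.25.

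**Figure D3:**
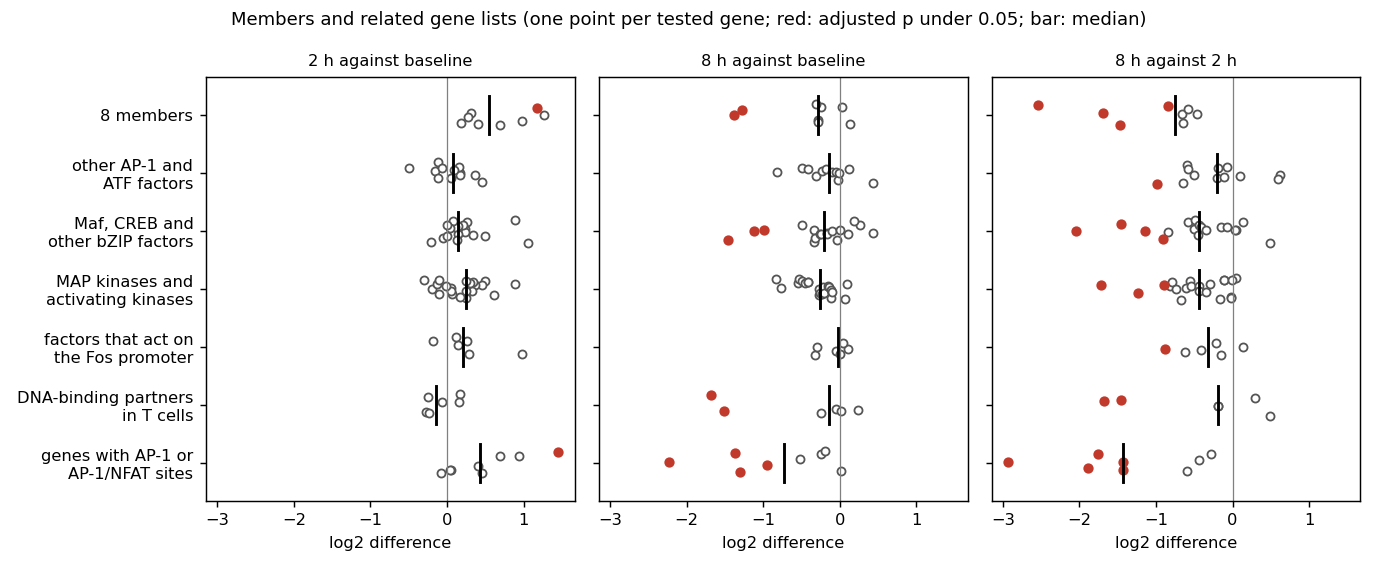
Log2 difference (x axis) of every tested gene of the 8 factors and of 6 related lists (y axis) in the 3 comparisons; red points passed an adjusted p under 0.05 and black bars are medians. Red points at 2 h are Fosl2 and Fasl alone, of which Fasl passed the filter on dim rows only through the 2 h array. All red points at 8 h lie left of 0. The list of genes with AP-1 sites, Fasl included, has the lowest median, −1.43, at 8 h against 2 h.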

How the data were processed

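Each sample had its own Affymetrix Mouse Gene ST array. The deposited values are intensities on a linear scale. RMA and Affymetrix Power Tools are named in the submitters' processing notes, without versions. Log2 was taken here with no pseudocount. The number of arrays limits the precision.

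Rows were named through the platform annotation: 21425 of 24922 had 1 gene symbol. A gene was represented by its row with the highest mean and kept when above the array's median on at least 1 array (10699 genes, 9053 set aside). Limma 3.58.1 in R 4.3.3 fitted a mean per group, with empirical Bayes moderation and two-sided Benjamini-Hochberg adjusted p over all tested genes. The spread came from 1 residual degree of freedom (baseline) and a prior of 7.46 (SD 0.175), on the assumption that the lone IFNa arrays vary as the baseline pair did.

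In 20 simulations with 200 changed genes, 52.9% of 2-fold and 99.5% of 4-fold changes were recovered at 2 h, and 56.1% and 99.8% at 8 h. There 11.7% and 11.4% of calls were false, above the 5% aimed at. For 8 h against 2 h 98.7% of 4-fold changes were recovered and 10.7% of calls were false. The simulated arrays had the same spread per gene and no shift of a whole array. These rates therefore need not hold for the real arrays.

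The members and lists were chosen with earlier results of these data known. Named genes were all 8 members, called list genes (up to 6 per list and comparison, otherwise up to 2 as values) and the 2 nearest profiles of each member. Some further genes are given as values only: the other NFAT genes and Srf were chosen after their values were seen. Alternatives were scaling, filters, priors, row choice, threshold and single baseline arrays.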

Additional observations from a re-analysis of the deposited data

Results flagged for a closer look

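For 4 of the 8 factors the effect at 8 h differed from the effect at 2 h by a test of the difference itself, which, since both share the baseline, is the 8 h array against the 2 h array. The log2 difference was −2.54 for Atf3, −1.69 for Jun, −1.46 for Fosl2 and −0.85 for Fosb. In this comparison 10.8% of all tested genes were called lower, and 67.9% had a difference below 0. Each of the 4 differences rests on 1 array per time. When every row of the array was tested, none of the 4 passed (adjusted p = 0.239 for each).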

How the results depend on the processing

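No paired analysis was possible because the groups share only the replicate number 1. With 1 array per IFNa time, no setting can show how such an array would vary.

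The number of the 8 factors called at 2 h (1) was 4 after quantile normalization, 3 with centred arrays, 3 at an adjusted p under 0.1 and 2 with a gene's rows averaged. It was 0 with no filter on dim rows, 0 with the 60th percentile filter and 0 when every row was tested. At 8 h (2) it was 1 with no filter and 0 with every row, and at 8 h against 2 h (4) it was 0 with every row. The cause was not tested. With every row, limma called no row at all, while 1141, 2883 and 4971 rows had an unadjusted p under 0.05 at 2 h, at 8 h and at 8 h against 2 h. Without one baseline array, the number of factors at least 2-fold apart from baseline was 2 in every case at both times.

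Over all genes, calls higher at 2 h (117) were 332 after quantile normalization, 291 with centred arrays, 181 at an adjusted p under 0.1 and 0 with every row. Calls lower (1) were 109, 7, 7 and 0 in these settings, 0 with no filter and 3 with an intensity trend. At 8 h, calls higher (70) were 663 after quantile normalization, 42 with no filter, 143 at 0.1 and 0 with every row. Calls lower at 8 h (358) were 900, 101, 888 and 0 in these settings, 724 with centred arrays and 203 with the 60th percentile filter. At 8 h against 2 h, calls higher (156) were 990 after quantile normalization, 72 with centred arrays, 20 with no filter, 62 with the 60th percentile filter, 678 at 0.1 and 0 with every row. Calls lower (1155) were 2315 with centred arrays, 395 with no filter, 2321 at 0.1 and 0 with every row.

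With another scaling the direction of a factor's difference turned in 3 cases, all uncalled. Fos at 8 h (0.02) was −0.184 after quantile normalization and −0.0564 with centred arrays, and Junb at 8 h (−0.24) was 0.0451 after quantile normalization. Against a single baseline array 5 uncalled differences turned sign: at 2 h Jund (−0.12) and Batf (−0.06) against replicate 2, and at 8 h Fos (−0.098) against replicate 2 and Junb (0.05) and Jund (0.09) against replicate 1. Fos at 2 h passed after quantile normalization (0.76, adjusted p = 0.0320), as did Fos at 8 h against 2 h (−0.94, adjusted p = 0.00545), but Fos entered the test only through the 2 h array, where it is high.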

Other observations

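Fos, Jdp2 and Batf are consecutive protein-coding genes on chromosome 12 in the RefSeq table of GRCm38.p6, with Jdp2 between the others. Jdp2, whose product pairs with Jun proteins and represses AP-1 sites, had an intensity of 249 at 2 h and 176 at 8 h, against 163 and 202 at baseline. Its log2 difference was 0.46 at 2 h (SE 0.22, adjusted p = 0.459) and −0.04 at 8 h (SE 0.22, adjusted p = 0.928). Set beside these, Fos stood at 0.69 and 0.02 and Batf at 0.18 and −0.29, and none of the 3 genes was called at either time. Junb and Jund, the pair with the most alike profiles, both lie on chromosome 8 with 162 protein-coding genes between them.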
